A study of Mus musculus with 37 samples.

Results

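The microRNAs described here are mmu-miR-126a-3p, mmu-miR-126a-5p, mmu-miR-143-3p and mmu-miR-145a-5p (mmu for mouse, left out from here on), 4 of the 1915 mature microRNAs counted in whole blood of ageing mice. They were chosen by name, as the microRNAs most closely tied to the vessel wall, and the first row of each in the table of counts was used. All 37 libraries came from C57BL/6 mice of the learning group, which the study's methods describe as males trained in the water maze. Blood was drawn from the retro-orbital sinus at 12 months of age (9 libraries), 13.5 months (12 libraries), 15 months (5 libraries) and 16.5 months (11 libraries). By the study's methods the samples at 12 months preceded any behavioural test and the later ones followed a probe test. A figure legend of the study instead puts each blood collection after a water maze procedure, the first of them at 12 months. Age, training and repeated bleeding cannot be told apart. No drug or genetic change was used, and no untrained animals of the same ages were analysed here. The study describes its blood collection as longitudinal, with the same mice bled again as they aged, so libraries of different ages are not from separate sets of animals. The labels do not say whether a replicate number is the same mouse at each age. The main tests of age therefore treated the 37 libraries as independent, and repeated sampling of a mouse was not modelled. Their p-values measure the spread between these libraries, and the effect of the shared mice on them was not tested.

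A microRNA is cut from a hairpin precursor, whose 5′ and 3′ arms can each give a mature strand, and the bases near the 5′ end of that strand, the seed, choose the target transcripts. miR-126 is transcribed within Egfl7, a gene of endothelial cells, and is best known for keeping up the response of endothelium to VEGF through its 3p strand and for endothelial proliferation through its 5p strand. It is also carried by megakaryocytes and platelets. miR-143 and miR-145 come from a single primary transcript, are typical of vascular smooth muscle, and are known for holding those cells in the contractile state. Whole blood holds microRNAs of its cells together with those carried in plasma, and bulk counts cannot tell fewer cells of a type from less RNA per cell.

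Of the 4, the sequence table used here (RefSeq, GRCm38.p6) held miR-126a-3p, which lies at chr2:26591402-26591423 on the plus strand. The precursor, Mir126a, spans chr2:26591357-26591429 within Egfl7 (chr2:26580014-26593120, plus strand) in GENCODE vM21. It was intronic in all but 1 of the 9 Egfl7 transcripts that span it, the exception being a transcript with a retained intron. An antisense precursor, Mir126b, lies on the minus strand of the same place, and its mature strands are shown because they come from the same hairpin-forming DNA. The seed, bases 2 to 8, is in capitals.
miR-126a-3p: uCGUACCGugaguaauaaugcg
miR-126b-3p: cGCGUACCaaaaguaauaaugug
miR-126b-5p: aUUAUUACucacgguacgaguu
miR-126a-3p and miR-126b-5p overlap by 19 bases on opposite strands, and all 19 are complementary. No other mature microRNA of the table had the seed of any of these 3.

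The blood character of the libraries was plain in their most abundant microRNAs. miR-486a-5p, an erythroid microRNA whose reads were also listed a second time as miR-486b-5p, took between 79.6% and 94.3% of the counts when counted once. Library totals ran from 2619533 to 20268095 counts, and what remained outside miR-486 from 140292 to 1131713, with 283 to 544 microRNAs detected. The microRNAs listed as platelet markers and all but 1 of those listed as leukocyte markers had reads in all 37 libraries. The exception was miR-155-5p, which was at 0 in 1 library. Among the 323 microRNAs tested, 13.5 months replicate 1 held the highest value of 58 and 12 months replicate 7 that of 36, beside 20 at most in any other library. These values are scaled by a factor per library, and a low factor raises all values of a library. The factor was 0.327 in 13.5 months replicate 1, the lowest of all, and 1.56 in 12 months replicate 7, beside a median of 1.05. The part of the scaling in these numbers was not tested. For the microRNAs described here, main comparisons of ages are therefore also given without 12 months replicate 7, and some without both libraries. Leaving out 13.5 months replicate 1 alone enters only the ranges over fits with 1 library left out. Age tests of other named microRNAs, among them the markers of blood cells, are given with all 37 libraries only. Their dependence on these libraries was not tested.

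The vascular microRNAs took a small part of the reads, and their order of abundance was the same in the pooled counts and in the mean levels. Abundance and rank here are those of reads, since sequence-dependent capture in library preparation was not tested. miR-143-3p was the most abundant, with a mean of 5.14 CPM (reads scaled to a common library size by the TMM method) and 1884 reads in all. miR-126a-5p followed at rank 222 of 1915 with 0.916 CPM and 320 reads. miR-126a-3p, the strand usually taken as the main product of its hairpin, stood at rank 282 with 0.406 CPM and 135 reads. miR-145a-5p was the scarcest, at rank 335 with 0.193 CPM and 62 reads. A count of 3 reads corresponds to between 0.147 and 2.16 CPM, depending on the library, so single values of the last 3 rest on very few reads. miR-143-3p was read in all 37 libraries, miR-126a-5p in 35, miR-126a-3p in 32 and miR-145a-5p in 26. The ranks are marked on the plot of abundance against rank.

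**Figure D1:**
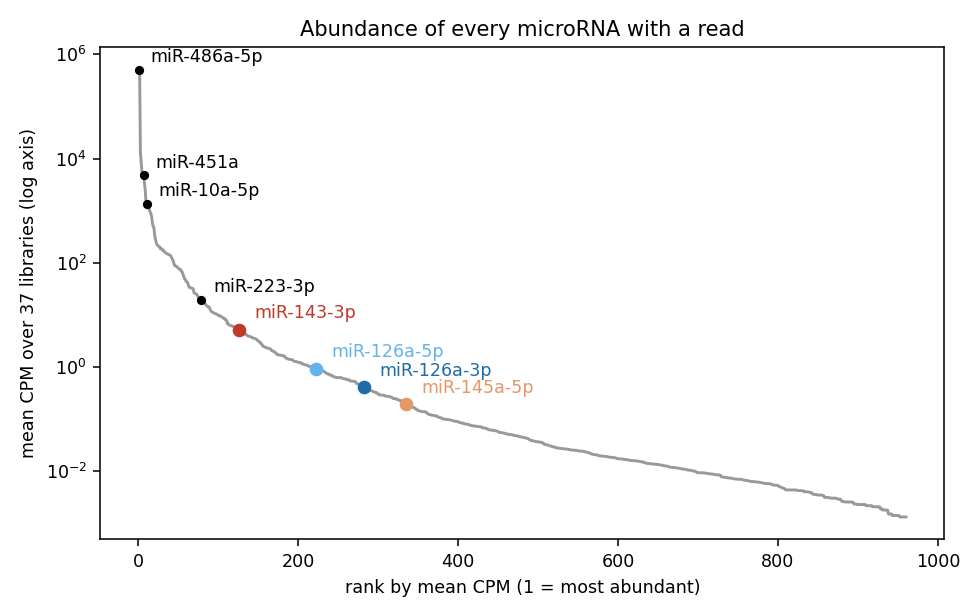
Mean CPM over 37 libraries (log axis) against rank for every microRNA with a read, with the 4 vascular microRNAs in colour and 4 abundant blood microRNAs in black. The 4 vascular microRNAs lie from 5.14 CPM down to 0.193 CPM at rank 335, far below miR-486a-5p.

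The level of miR-126a-3p was low at every age and its library-to-library scatter was about that of read counting alone. At 12 months the lowest library had 0 CPM, the median was 0.581 and the highest was 0.940 (mean 0.550 ± 0.296, SD, n = 9). At 13.5 months the values ran from 0 through a median of 0.479 to 1.19 CPM (0.466 ± 0.361, n = 12). At 15 months the libraries read 0, 0.323, 0.315, 0.294 and 0.109 CPM (0.208 ± 0.146, n = 5). All 5 lay below the 12-month median, although the ranges overlapped. At 16.5 months the values ran from 0 through 0.314 to 0.570 CPM (0.314 ± 0.193, n = 11), and all 11 lay below the 12-month median. The squared scatter of its reads within ages was 1.02 times the value that counting error gives at these depths. Neighbours in the order 12, 13.5, 16.5 and 15 months did not differ beyond their spread (edgeR contrasts, adjusted p = 0.792, 0.202 and 0.976).

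miR-126a-5p was the arm with more reads and varied more. At 12 months its lowest value was 0.215 CPM, the median 1.05 and the highest 4.20 (1.43 ± 1.15, n = 9). The highest came from replicate 7, with 52 reads, and without it the 12-month mean was 1.08 ± 0.528 (n = 8). At 13.5 months the values ran from 0 through a median of 0.282 to 2.47 CPM (0.613 ± 0.787, n = 12), and 10 of the 12 libraries were below the 12-month median. The 2 exceptions, replicates 8 and 12, had 1.92 and 2.47 CPM. At 15 months the libraries read 0.346, 0.754, 2.20, 0.736 and 1.42 CPM (1.09 ± 0.731, n = 5). At 16.5 months the values kept within a narrower range, from 0.354 through 0.766 to 1.34 CPM (0.749 ± 0.303, n = 11). The ranges of all ages overlapped. In the order 12, 15, 16.5 and 13.5 months no neighbours differed beyond their spread (edgeR, adjusted p = 0.821, 0.911 and 0.817).

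The 2 arms of miR-126a come from the same hairpin, so their ratio within a library is free of library scaling. It is a ratio of reads, since sequence-dependent capture in library preparation was not tested. The 5p arm had more reads in 25 libraries, the 3p arm in 6, and 6 were tied, 2 of them at 0 reads of both. The 3p arm gave 29.7% of the reads of both arms over all libraries (95% exact Clopper-Pearson interval 25.5 to 34.1%, counting error only). The share was highest in the libraries of 13.5 months, at 42.1% (33.2 to 51.5%). It was 25.8% (19.1 to 33.6%) at 12 months and 27.3% (19.6 to 36.1%) at 16.5 months, and lowest, 19.4% (10.4 to 31.4%), in those of 15 months. At 12 months replicate 7 gave 52 of the 112 reads of the 5p arm and 9 of the 39 of the 3p arm. The share of that age leans on this library and is given only with it. The squared scatter of 5p reads within ages was 5.36 times counting error, so the intervals are too narrow for comparing ages. All 5 libraries of 15 months had more 5p reads, while at 13.5 months 5 libraries had more 3p reads and 4 more 5p reads. The log2 ratio of 3p to 5p, with 0.5 added to each count, averaged -0.90 ± 1.27 (SD, n = 37) and its ranges overlapped between ages; this ratio was not tested. Within ages the levels of the arms had a correlation of r = 0.40 over the 37 libraries, which share depth and scaling. The plot of both arms shows most libraries below the line of equal reads.

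**Figure D2:**
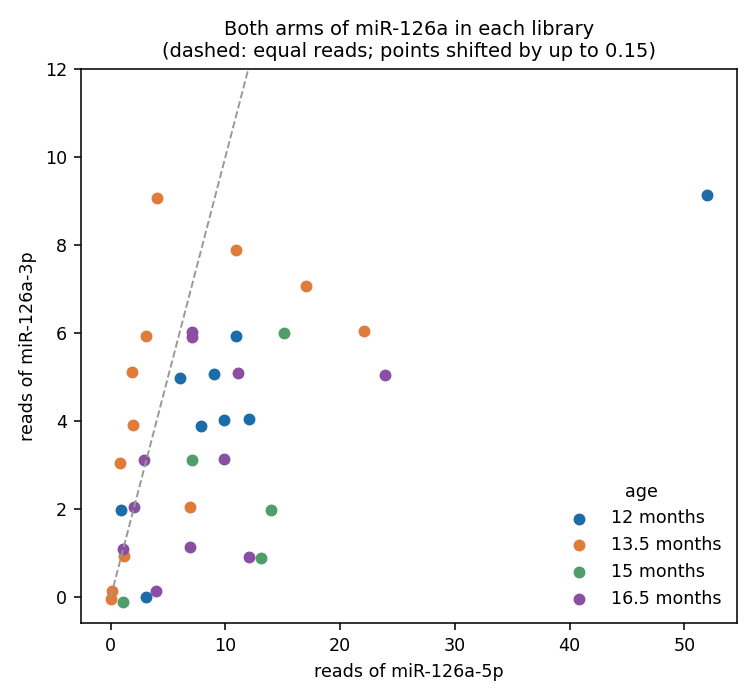
Reads of miR-126a-3p (vertical axis) against reads of miR-126a-5p (horizontal axis) in each of the 37 libraries, coloured by age, with a dashed line at equal reads and points shifted by up to 0.15 for visibility. Points to the right of the line, 25 of 37, had more 5p reads, and 12 months replicate 7 stands alone at 52 reads of the 5p arm.

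From the antisense precursor, miR-126b-3p had 5 reads in 4 libraries, none of them at 12 months, and miR-126b-5p had 0 reads in all 37. The reads of this place therefore came almost entirely under the names of the sense strand.

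miR-143-3p was the only one of the 4 with more than 100 reads in any library, which 3 libraries reached. At 12 months its lowest value was 1.28 CPM, the median 3.12 and the highest 44.2. That highest value, 548 reads in replicate 7, stood alone, since the other 8 libraries of that age reached 5.51 CPM and 54 reads at most. The 12-month mean was 7.82 ± 13.7 (SD, n = 9) with this library and 3.27 ± 1.43 (n = 8) without it. At 13.5 months the values ran from 1.44 through a median of 4.56 to 9.55 CPM (5.16 ± 2.64, n = 12). At 15 months the libraries read 2.77, 5.06, 2.83, 5.30 and 10.4 CPM (5.27 ± 3.10, n = 5). At 16.5 months the values were lower and closer together, from 1.29 through 3.07 to 4.29 CPM (2.87 ± 0.928, n = 11). All 11 libraries of 16.5 months lay below the median of 13.5 months, and in 107 of the 132 pairs of libraries from these ages the 16.5-month value was the lower one. The ranges of all ages overlapped. By medians the order was 15, 13.5, 12 and 16.5 months, and by means that include replicate 7 it was 12, 15, 13.5 and 16.5 months, so the place of 12 months rests on 1 library.

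The partner of miR-143 in its transcript was scarce. miR-145a-5p had a median of 1 read per library, and its highest count was 9 reads, again in 12 months replicate 7. At 12 months the values ran from 0 through 0.162 to 0.727 CPM (0.209 ± 0.238, n = 9), with 3 libraries at 0. At 13.5 months they ran from 0 through 0.133 to 0.794 CPM (0.221 ± 0.266, n = 12), and 3 libraries were again at 0. At 15 months the libraries read 0, 0, 0, 0.0981 and 0.109 CPM (0.0415 ± 0.0569, n = 5), which are 3 reads in all. At 16.5 months they ran from 0 through 0.186 to 0.707 CPM (0.216 ± 0.201, n = 11). Levels of this size lie at or near what a few reads give, and the ages could not be ordered at this depth.

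Although they share a transcript, miR-143-3p had more reads than miR-145a-5p in 37 of 37 libraries and gave 96.8% of the reads of both (exact 95% interval 95.9 to 97.5%). By age the share ran from 93.5% at 16.5 months to 98.9% at 15 months. The log2 ratio averaged 4.29 ± 1.44 (SD, n = 37). Sequence-dependent capture in library preparation was not tested, so the ratio is one of reads. The other strands were rarer still. miR-145a-3p had 42 reads and was at 0 in 15 libraries, while miR-143-5p and miR-145b had 0 reads in all 37. Within ages the levels of miR-143-3p and miR-145a-5p had a correlation of r = 0.23 over 37 libraries and of -0.11 over the 36 without 12 months replicate 7.

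**Figure D3:**
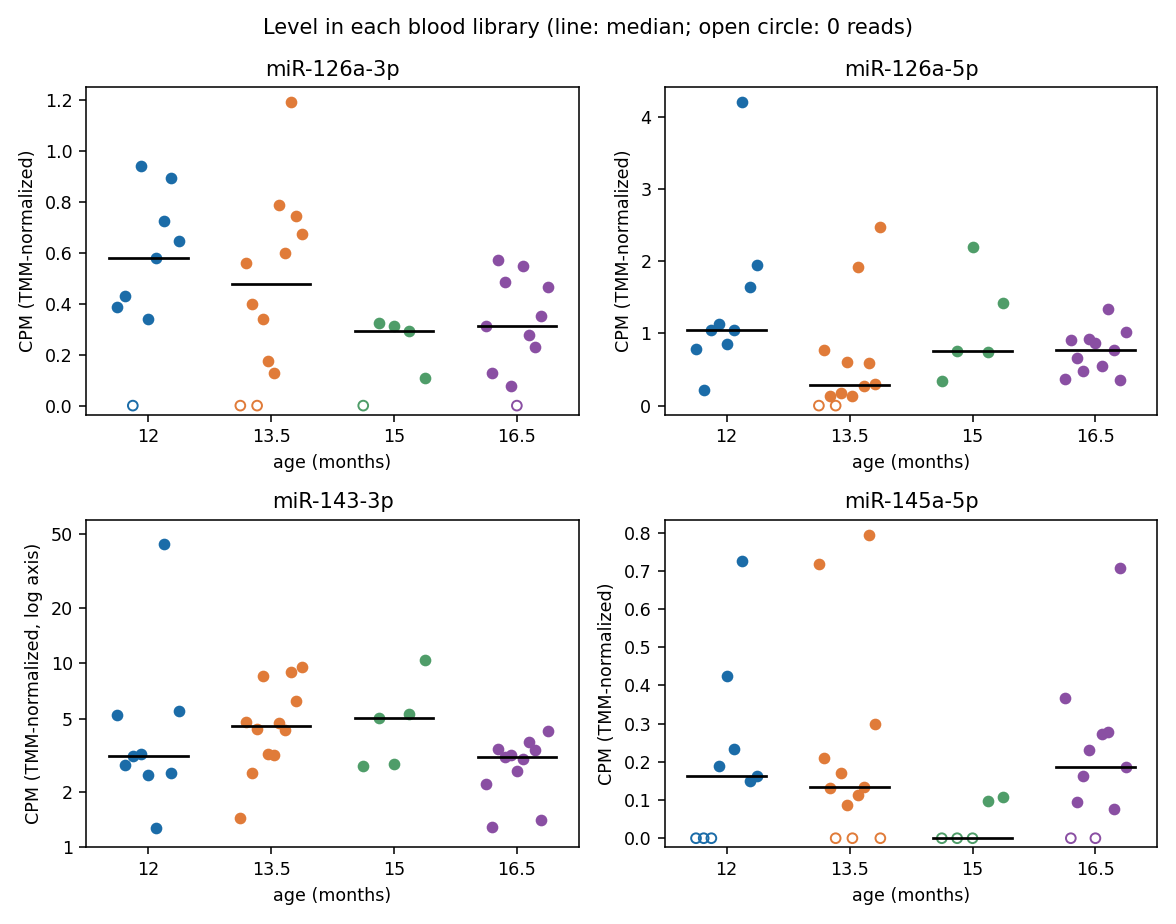
CPM of each vascular microRNA in each library (points) by age in months, with the median of each age as a line and open circles for libraries with 0 reads; the axis of miR-143-3p is logarithmic and the others are linear. The ages overlap in every panel, and the 44.2 CPM of 12 months replicate 7 stands far above all other values of miR-143-3p.

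Whether age went with the levels was asked of all microRNAs at once, with edgeR's quasi-likelihood F-test over the 4 ages. A microRNA entered when 50% of the libraries or more had over 1 read of it, which 323 did, and 32.2% of these passed an adjusted p of 0.05. Of the vascular microRNAs 3 could be tested and 0 passed (adjusted p = 0.0553 for miR-143-3p, 0.123 for miR-126a-3p and 0.151 for miR-126a-5p). At an unadjusted p under 0.05 the F-test held for 1 of the 3, miR-143-3p (p = 0.0195 from edgeR's fit), and DESeq2 also called 1, miR-143-3p, at an adjusted p of 0.0224. Without 12 months replicate 7, miR-143-3p passed (adjusted p = 0.0398), and 24.0% of 325 microRNAs did. That library was chosen for leaving out from the values themselves, and it held the extreme value of miR-143-3p (44.2 CPM). This pass therefore does not decide whether age went with the level. miR-145a-5p had more than 1 read in only 14 libraries and did not enter. With no filter on low counts its adjusted p was 0.474, beside 7.81% of 960 microRNAs called.

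In single comparisons of ages, 1 of the 3 was called at 16.5 against 12 months, beside 14.2% of all microRNAs tested, and 9.60% in the lower direction. This was miR-143-3p, which at 16.5 months was lower by 1.46 on the log2 scale of the fit, a 2.75-fold difference (log2 fold change -1.46, SE 0.44, edgeR adjusted p = 0.0235). At an unadjusted p under 0.05 all 3 were lower there, and DESeq2 called 1, miR-143-3p. The call of miR-143-3p was lost without 12 months replicate 7. Without that library the log2 fold change was -0.13 (SE 0.31, adjusted p = 0.935), a difference of 1.09-fold, and 3.38% of 325 microRNAs were called. Leaving out any other single library kept the call. It was also lost in the fits with RUVs factors (log2 fold change -0.68 to -0.29), with limma on the authors' normalized values (-0.59 and -0.51) and in the fit blocked by replicate number (-0.77).

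At 16.5 against 13.5 months, which involves no 12-month library in its means, miR-143-3p had a log2 fold change of -0.85 (SE 0.42, edgeR adjusted p = 0.138), and 0 of the 3 were called beside 26.6% of all tested. Unadjusted, 1 of the 3 passed 0.05, and DESeq2 called 0. Without 12 months replicate 7, which enters this comparison only through the shared estimate of spread, the size was nearly the same (-0.82) and the SE fell to 0.28, with an adjusted p of 0.0228 and 25.8% called in all. With 13.5 months replicate 1 left out as well, it was -0.89 (adjusted p = 0.00972). The lower level at 16.5 months than at 13.5 months, 1.77-fold without replicate 7, was past the threshold there. Its direction was the same in each of the alternatives computed. It was called in only 3 of the 19 other settings and in 1 of the 37 fits that left out 1 library. Without replicate 7 and with no filter the edgeR adjusted p was 0.0525. Replicate 7 was chosen for leaving out from its values, so the call without it does not decide the question. Against 15 months, miR-143-3p at 16.5 months had a log2 fold change of -0.88 (SE 0.52, adjusted p = 0.650). Only 0.310% of all microRNAs were called in that comparison, where the earlier age had 5 libraries, and 0 of the 3, with 0 also at an unadjusted p under 0.05 and by DESeq2.

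The arms of miR-126a passed the threshold in no comparison of the fit with all 37 libraries. At 13.5 against 12 months miR-126a-5p had a log2 fold change of -1.12 (SE 0.45, edgeR adjusted p = 0.0683), beside 21.7% of all microRNAs called and 0 of the 3. Unadjusted, miR-126a-5p was the 1 of 3 under 0.05, and DESeq2 called 0, with an adjusted p of 0.0521 for miR-126a-5p. It was called in 6 of the 19 other settings and in 3 of the 37 fits that left out 1 library, always as lower at 13.5 months. The log2 fold change was -0.61 (adjusted p = 0.398) without 12 months replicate 7 and -1.58 (adjusted p = 0.00628) without 13.5 months replicate 12, the highest of its age. In the fit blocked by replicate number it was -1.65 (adjusted p = 0.00682). Replicate numbers are not known to mark mice, so this fit, 1 of the 6, does not bear on the call. The 3p arm differed less between these ages (-0.18, SE 0.38, adjusted p = 0.792). At 16.5 against 12 months both arms were at lower values, with -0.86 (SE 0.41, adjusted p = 0.151) for miR-126a-3p and -0.92 (SE 0.44, adjusted p = 0.167) for miR-126a-5p. Without 12 months replicate 7 these were -0.75 and -0.41 (adjusted p = 0.298 and 0.675). At 15 against 12 months miR-126a-3p had -1.20 (SE 0.54, adjusted p = 0.389), with 0 of the 3 called beside 0.310% in all, and 1 of the 3, miR-126a-3p, under an unadjusted p of 0.05. DESeq2 called 0 of them there and at 15 against 13.5 months, and gave miR-126a-3p no adjusted p in comparisons with 15 months. At 15 against 13.5 months the arms pointed in opposite directions, with -1.02 (SE 0.52) for miR-126a-3p and 0.70 (SE 0.54) for miR-126a-5p. Neither passed (edgeR adjusted p = 0.238 and 0.477), 0 of the 3 were called beside 9.91% in all, 0 were under an unadjusted p of 0.05, and the difference between the arms was not tested.

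For miR-145a-5p the fit without a filter gave its lowest unadjusted p at 15 against 12 months, with a log2 fold change of -1.93 (SE 0.86, adjusted p = 0.624). This fold rests on 3 reads at 15 months and 19 at 12 months, 9 of them in replicate 7, and without that library it was -1.25. The plot of fold changes shows how the comparisons that involve 12 months moved when replicate 7 was left out.

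**Figure D4:**
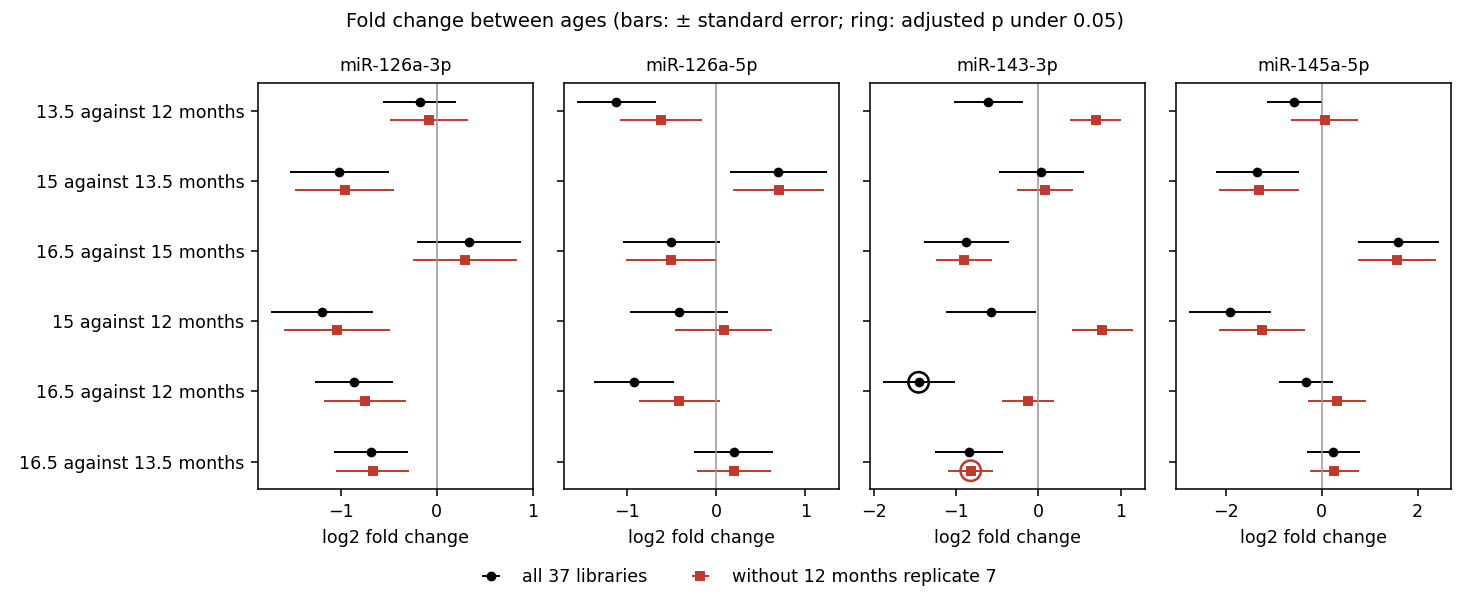
Log2 fold change (points, with bars of 1 standard error on each side) of each vascular microRNA between pairs of ages, with all 37 libraries (black circles) and without 12 months replicate 7 (red squares), and rings where the adjusted p was under 0.05. For miR-143-3p the ring moves from 16.5 against 12 months (-1.46) to 16.5 against 13.5 months (-0.82) when that library is left out, and the values at 13.5 and 15 against 12 months change sign.

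12 months replicate 7 was not a shallow library, with 726553 counts outside miR-486. Its difference from the mean of the other 12-month libraries, on the scale of log2(CPM + 1), was larger for miR-143-3p than for any of the other microRNAs tested, at 3.48. miR-126a-5p had the rank 15 in that order, with 1.36, while miR-126a-3p, at 9 reads, was close to the other libraries. The median difference over the 323 microRNAs was -0.06, and 31 were higher and 25 lower by more than 1. Other microRNAs far up in this library were named after their values were seen. miR-200b-3p (2.31), miR-183-5p (2.27) and miR-141-3p (2.03) are typical of epithelium, and miR-10b-5p (2.05) and miR-133a-3p (1.95) were also far up. Other microRNAs found in epithelium did not all share this, with miR-205-5p at 0.39, miR-182-5p at 0.31 and miR-375-3p at -0.27. miR-203-3p (1.21) and miR-200c-3p (1.06) were higher. No list of epithelial microRNAs was set beforehand, so an epithelial part was not tested. miR-133a-3p and miR-133b-3p are microRNAs of striated muscle, and 42 of the 60 reads of miR-133b-3p in all libraries were in this one. The summed striated muscle list, 4 microRNAs, was 25.8 CPM there against 13.1 at most in the other 12-month libraries. Its defining member miR-1a-3p was at 0 in all 37 libraries, and the liver microRNA miR-122-5p in 27, this one among them. Neither value sets this library apart from the others. The lists of blood cell markers did not move one way in this library. The erythroid list ran from -1.07 for miR-92a-3p through -0.41 for miR-486a-5p to 1.72 for miR-451a, and the leukocyte list from -1.11 for miR-150-5p, a lymphocyte microRNA, to 0.91 for miR-142a-3p. The platelet list ran from -0.65 for miR-22-3p to 0.60 for miR-24-3p. The part of RNA from other tissues in the value of miR-143-3p was not tested.

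**Figure D5:**
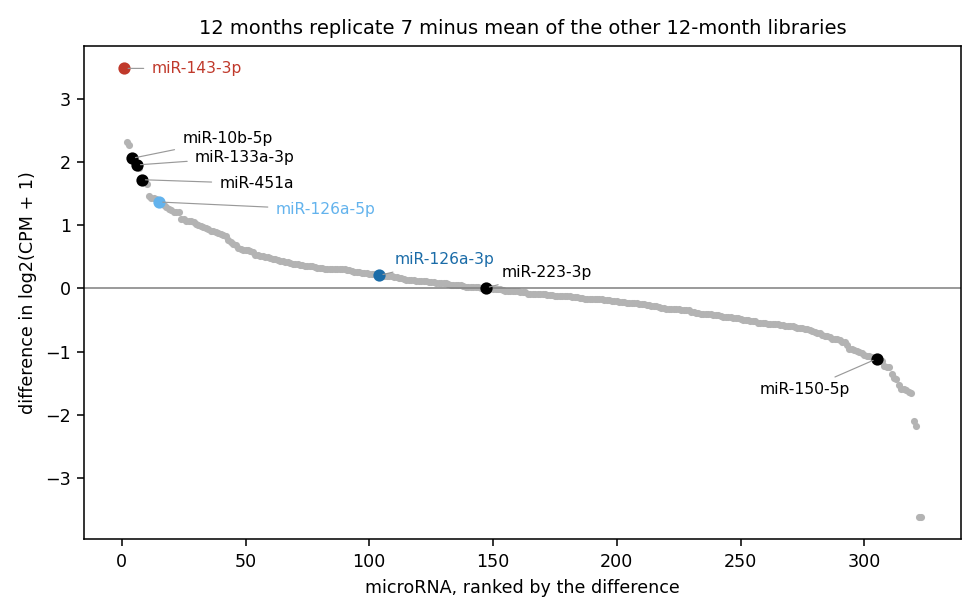
Difference in log2(CPM + 1) between 12 months replicate 7 and the mean of the other 12-month libraries for each of the 323 microRNAs tested, ranked from the highest, with miR-126a-3p, miR-126a-5p and miR-143-3p in colour. miR-143-3p leads at 3.48, and miR-126a-5p (1.36) lies near miR-451a and miR-10b-5p among the highest.

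Other microRNAs of endothelium, smooth muscle or stroma formed a list of 18, of which 8 could be tested and 3 were at 0 in all libraries. Of the 8, 4 passed the F-test over ages, beside the 32.2% of all microRNAs, and they did not share one pattern. miR-100-5p was lower at 16.5 than at 12 months (4.55 ± 3.28 against 1.43 ± 0.755 CPM; log2 fold change -1.75, SE 0.39, edgeR adjusted p = 0.00540), and its highest 12-month value was also in replicate 7. miR-99a-5p, which has the same seed, was lowest at 13.5 months (5.22 ± 1.37 CPM, against 12.4 ± 4.81 at 12 months; -1.25, SE 0.22, adjusted p = 8.8e-05). miR-221-3p and miR-222-3p, a pair of endothelial microRNAs from one cluster, were highest at 13.5 months, and from there to 15 months they fell by 1.46 and 0.58 on the log2 scale (adjusted p = 5.2e-04 and 0.0442). The abundant miR-10a-5p, miR-10b-5p, miR-125b-5p and miR-21a-5p did not pass (adjusted p = 0.504 to 0.917). At 16.5 against 12 months 1 of the 8 was called lower and 0 higher, beside 9.60% and 4.64% of all microRNAs. The median log2 fold change of the 8 was -0.13, and that of all microRNAs tested was -0.03. At 13.5 against 12 months the median was 0.093 beside -0.04, with 1 called higher and 1 lower, beside 9.91% and 11.8% of all.
miR-100-5p: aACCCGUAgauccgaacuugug
miR-99a-5p: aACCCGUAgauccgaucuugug
miR-10a-5p: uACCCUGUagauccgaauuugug
miR-10b-5p: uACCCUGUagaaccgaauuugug
These are shown because each pair has a seed in common, in capitals, and yet miR-100-5p and miR-99a-5p stood lowest at different ages. They lie at chr9:41531437-41531458, chr16:77598940-77598961, chr11:96317186-96317208 and chr2:74726074-74726096, all on the plus strand.

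Some markers of blood cells differed between ages as well. Of the platelet list 5 of 6 passed the F-test, of the leukocyte list 2 of 6 and of the erythroid list 4 of 7, beside 32.2% of all microRNAs tested. At 13.5 against 12 months, where miR-126a-5p was at -1.12, the platelet list had 2 members called lower and 0 higher. These were miR-223-3p (-0.89, SE 0.25, edgeR adjusted p = 0.00955) and miR-22-3p (-0.43, SE 0.14, adjusted p = 0.0307). Whether miR-223-3p or the other members of the platelet list came from platelets or from other cells was not tested. The leukocyte list had 2 called higher and 1 lower. The erythroid miR-144-5p was lower (-1.51, SE 0.29, adjusted p = 2.1e-04). The erythroid list had no common direction there, with 3 members called lower and 1 higher. The last was miR-92a-3p (1.72, SE 0.36, adjusted p = 4.7e-04), and miR-486a-5p was at 0.41 (adjusted p = 0.229). miR-191-5p, the most abundant of the platelet list, was at -0.06 (adjusted p = 0.841). The summed platelet list was mostly miR-191-5p and miR-22-3p, with means of 8450 and 3455 CPM over all libraries, against 19.2 for miR-223-3p. The sum is therefore not a measure of platelets. It had a median of 13578 CPM at 12 months and 11806 CPM at 13.5 months. It then stood at 12371 CPM (15 months) and 15639 CPM (16.5 months), with ranges that overlapped between all ages. The summed leukocyte list ran between medians of 2448 CPM at 13.5 months and 3165 at 16.5 months. The part of these differences in the levels of miR-126a was not tested.

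The microRNAs most like each of the 4 were found among the 87 microRNAs whose counts passed 100 in 50% of the libraries or more, by Pearson's r of log2(CPM + 1) after subtracting the mean of each age, over 37 libraries. These are descriptions, since all values of a library share its depth and scaling. miR-126a-3p was most like miR-223-3p (r = 0.67), miR-30d-5p (0.63) and miR-186-5p (0.62), and the order was the same without 12 months replicate 7. These values rest on few reads, with a median of 4 for miR-126a-3p and a squared scatter of 1.02 times counting error. miR-126a-5p was most like the erythroid miR-144-5p (0.58), miR-30e-5p (0.55) and miR-21a-5p (0.54). Without replicate 7 the first 2 kept their places (0.60 and 0.57) and miR-21a-5p moved to place 7 (0.48). miR-143-3p had the closest neighbours of the 4, with miR-148a-3p (0.75), miR-21a-5p (0.71) and miR-181c-5p (0.67). These values did not come from replicate 7, as they were 0.78, 0.77 and 0.71 without it. miR-145a-5p was most like miR-10a-5p (0.50), miR-99b-5p (0.40) and miR-501-3p (0.40). Without replicate 7 miR-501-3p led, with 0.45, so these values rest on few reads and on that library. The leading neighbours of the first 3 and miR-21a-5p, which was among the leading 3 of miR-143-3p with and without replicate 7 and of miR-126a-5p only with it, have the following mature strands, with the seed in capitals.
miR-223-3p: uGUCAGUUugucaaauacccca
miR-144-5p: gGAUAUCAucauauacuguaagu
miR-148a-3p: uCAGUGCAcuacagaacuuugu
miR-21a-5p: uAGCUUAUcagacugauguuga
None of these has the seed of miR-126a-3p. Among the 4 vascular microRNAs themselves, r ran from 0.06, for miR-126a-5p with miR-145a-5p, to 0.56, for miR-126a-5p with miR-143-3p. The latter was 0.38 without 12 months replicate 7.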

How the data were processed

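Small RNA libraries of whole blood (TruSeq Small RNA kit) were sequenced as single-end reads. The authors trimmed adapters with cutadapt, aligned and counted the reads with miRDeep2 against mm10 and miRBase without mismatches, and deposited whole-number counts, 2241 rows for 1915 mature microRNAs. The authors also deposited a table of normalized signal, the counts divided by 1 factor per library, which was used only as an alternative. No column of per-sample values was left out (0).

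Where a microRNA had several rows, the first was taken. In the labels each sample has 1 of 4 ages. edgeR 4.0.16 in R 4.3.3 (TMM, quasi-likelihood F-test, single ages as contrasts, Benjamini-Hochberg over all microRNAs tested, threshold 0.05) was fitted to all 37 libraries, for microRNAs of which 50% of the libraries or more had over 1 read. Standard errors were obtained as the absolute log2 fold change over the root of F. miR-145a-5p failed this filter, so its values come from the fit with no filter. Library sizes count the reads of miR-486 under both of its names. Totals of 2619533 to 20268095 counts set the precision, and PCR copies cannot be told from molecules, so intervals cover counting error only. DESeq2 1.42.0, limma 3.58.1, RUVs factors computed from their published formula, other scalings and filters, and libraries left out were alternatives.

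Named were the 4 members, the 3 microRNAs most correlated with each, marker microRNAs that had over 100 reads in 50% of the libraries or more, the other vascular microRNAs that passed the F-test, the other strands of the same precursors, and, where stated, microRNAs chosen after their values were seen. The members and the marker lists were chosen with earlier results of these data known. Replicate numbers were not taken as pairs. Over 44 same-numbered pairs of libraries the correlation of deviations from the age means ran from -0.86 to 0.83 (mean -0.03). The fit blocked by replicate number is therefore listed only as a computed alternative, and no result rests on calls it gained or lost. The closest libraries of one age still differed 14.6 times more than read counting gives, so none was taken as a duplicate.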

Additional observations from a re-analysis of the deposited data

Results flagged for a closer look

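The sets of values examined were 8, those of the 4 vascular microRNAs at the ages with 10 libraries or fewer (12 and 15 months). Of these, 2 had a library that lay apart by Dixon's criterion. For normally distributed values chance exceeds it in about 5% of sets. The values here were untransformed CPM, many of them from few reads, and the share for such values was not tested. In both sets the library that lay apart was 12 months replicate 7. It had 44.2 CPM of miR-143-3p, with a gap to the nearest library of 0.90 of the whole range (limit 0.493), and 4.20 CPM of miR-126a-5p, with a gap of 0.57 of the range.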

How the results depend on the processing

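The F-test of miR-143-3p over ages (adjusted p = 0.0553) passed with RLE size factors (0.0388), total counts (0.0344), total counts outside miR-486 (0.0415), DESeq2 (0.0224), depth as a covariate (0.0289), no filter (0.0296) and with 12 months replicate 7 and 13.5 months replicate 1 left out together, an alternative chosen after seeing the data (0.0176). With 1 library left out it ran from 0.0269 to 0.0931 and passed in 8 of 37. That of miR-126a-5p passed with the replicate block (0.0173) and with limma on the authors' values plus 1 (0.0481), and with 1 library left out ran from 0.0251, without 13.5 months replicate 12, to 0.560, without 12 months replicate 7. Those of miR-126a-3p and miR-145a-5p passed in none of the alternatives run. The call of miR-143-3p at 16.5 against 12 months (log2 fold change -1.46) was lost with 1, 2 and 3 RUVs factors (-0.61, -0.50 and -0.29), 1 RUVs factor in DESeq2 (-0.68), the replicate block (-0.77), limma with 1 and 10 added (-0.59 and -0.51) and 12 months replicate 7 with 13.5 months replicate 1 left out (-0.15). With 1 library left out it ran from -1.62 to -0.13. The cause was not tested, except that 1 library carries the call. The log2 fold change of miR-126a-5p at 13.5 against 12 months (-1.12) was called with total counts outside miR-486 (-1.27), TMM with the reference of lowest factor (-1.28), depth as a covariate (-1.21), limma with 1 and 10 added (-1.42 and -0.52) and the replicate block (-1.65), and without 12 months replicate 2 or 13.5 months replicates 8 or 12 (-1.23, -1.39 and -1.58). The replicate block also called it at 15 against 13.5 months (1.73), and the microRNAs with an age effect numbered 109 with it, 104 without it and 51 with the filter of more than 100 reads, which tests 87.

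Uncalled differences changed sign as follows. For miR-126a-3p at 13.5 against 12 months (-0.18), 1, 2 and 3 RUVs factors and DESeq2 with 1 gave 0.072, 0.16, 0.15 and 0.036. For miR-143-3p at 13.5 against 12 months (-0.61) the same 4 gave 0.32, 0.19, 0.29 and 0.26, limma 0.13 and 0.047 and the 2 libraries left out 0.75, with -0.85 to 0.70 when 1 was left out. At 15 against 12 months (-0.58) these gave 0.022, 0.052, 0.12, 0.016, 0.21, 0.097 and 0.72, the replicate block 0.25, and -0.97 to 0.78. At 15 against 13.5 months (0.03) total counts gave -0.38, the RUVs fits -0.29, -0.14, -0.17 and -0.24, the 2 libraries left out -0.026, and 1 left out -0.36 to 0.22. For miR-126a-5p at 15 against 12 months (-0.42) the replicate block gave 0.080, the 2 libraries left out 0.038, and 1 left out -0.76 to 0.088. For miR-145a-5p limma gave 0.0072 and 3.1e-04 at 13.5 against 12 months and 0.094 and 0.0033 at 16.5 against 12 months, where the 2 libraries left out gave 0.32. With 1 left out these ran from -0.91 to 0.056 and from -0.53 to 0.32. At 16.5 against 13.5 months 2 RUVs factors gave -0.051. Total counts moved the median log2 fold change of all microRNAs to between -0.72 and 0.33, against -0.07 to 0.00 with TMM. Relative to that median miR-143-3p was at -1.56 for 16.5 against 12 months. The filter of at least 1 read in 50% of libraries was also chosen after seeing the data and changed no call of the 4. The filter of more than 100 reads leaves none of the 4 to test. Depth limits miR-126a-3p and miR-145a-5p most, with medians of 4 and 1 reads.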
